A study of Mus musculus with 1536 samples.

Results

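The cells described here were 141 serotonin neurons that expressed Irx2, an Iroquois homeobox gene, and lacked Zeb2. They were chosen among the 709 cells of the 11 plates that hold the wider of the study's dissections, by an Irx2 level of at least 5 CPM (counts per 1000000 reads of the cell on genes) and a Zeb2 level under 5 CPM. The deposited table holds 999 cells, of which the other 290 came from a dissection of the principal dorsal raphe (DR) alone. Median raphe-like is a working name for the 141 cells, after the median raphe (MR), and no position was measured in them. They are called Irx2 cells below, and Irx2 and Zeb2 are left out of every count and result.

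The cells came from male and female mice of 40 to 45 days on the C57BL/6J strain, with no treatment named, in which Sert-Cre was crossed with the Ai14 reporter, so that a cell that has made Cre under the control of the serotonin transporter gene makes the red protein tdTomato for life. The labels name the region of these plates All DR, and the study's design text gives it as the whole DR and MR of 8 animal samples. Sorted single cells were made into Smart-seq2 libraries, 1 per cell, which copy full-length polyadenylated RNA and carry no molecular identifiers. The labels tie no cell to an animal, so the dissection counts as 1 sample. No p-value could be computed. The spread is given between plates, which are the codes that end the cell names and may each hold cells of more than 1 animal.

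Serotonin neurons of the DR and MR arise in neighbouring segments of the embryonic hindbrain and share the enzymes, transporters and transcription factors that make and recycle serotonin. They differ in the receptors through which other transmitters and peptides reach them, in the second transmitters they may release, and in the adhesion and guidance molecules that accompany their axon targets. The MR is known for its projections to the hippocampus and septum. Iroquois genes encode homeobox transcription factors that act early in patterning the neural tube.

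Irx2 cells made up 19.9% of the cells of the dissection (95% exact Clopper-Pearson interval 17.0 to 23.0, which covers counting error only) and were on all 11 plates. A plate held 7 to 17 of them (median 14), or 10.5% to 36.7% of its cells. The other 568 cells of the plates comprised 142 with Zeb2 of at least 5 CPM, called Zeb2 cells, and 426 with neither gene. The plate SER48 stood apart, with 42 Zeb2 cells among its 76 cells. Irx2 cells had a median of 774014 reads on genes (190266 to 2126545) and 9194 detected genes, and the other cells 906692 reads (96834 to 2493904) and 9556 genes. Shares of cells are therefore also given after every cell was thinned to 250000 reads, which left out 2 Irx2 cells and 6 other cells. No 2 cells of the plates had identical values.

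**Figure D1:**
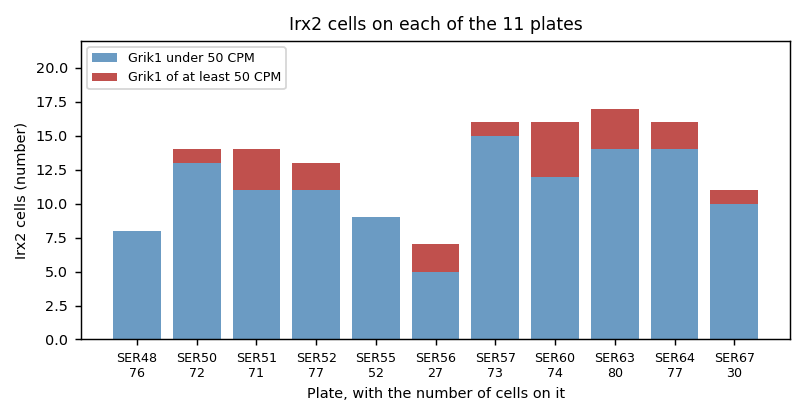
Number of Irx2 cells (bar height) on each of the 11 plates, split by Grik1 level, with the number of all cells on the plate under its name. The bars run from 7 to 17 cells, and cells with Grik1 of at least 50 CPM are on 9 of the 11 plates.

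As the gates set them, the levels of the chosen genes are a description. Irx2 in the 141 cells ran from 5.36 to 189 CPM (median 32.2). The cell just inside the threshold had 5.36 CPM and the cell just outside it 4.77 CPM, and the 8 cells with an Irx2 read below the threshold lay between 1.37 and 4.77 CPM. Not a single read of Zeb2 was counted in the 141 cells, whereas 5 further cells with Irx2 were set aside for Zeb2 levels of 5.07 to 77.6 CPM.

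The Irx2 cells were serotonin neurons by their markers. All 7 markers fixed for the check, Tph2, Slc6a4, Slc18a2, Fev, Ddc, Gata3 and Lmx1b, had a read in 124 of 141 cells (87.9%, interval 81.4 to 92.8). Of 13 genes for serotonin synthesis, transport and identity, 0 were higher and 0 lower than in the other cells past a log2 ratio of 1, and their median log2 ratio was 0.00. Smaller differences had the same direction on 9 or more of the 11 plates for the 4 genes given here. Tph2, the rate-limiting enzyme of serotonin synthesis, had plate means from 6560.4 to 10288 CPM (median 8092) in the Irx2 cells and from 9390.5 to 11361 CPM (median 10730.0) in the other cells. Its log2 ratio within plates was -0.39 ± 0.18 (SD, n = 11) and was below 0 on 11 of 11 plates, although the ranges overlap. Slc18a2, which loads serotonin into vesicles, was above the other cells on 11 of 11 plates, at 3460.0 against 2777 CPM (log2 ratio within plates 0.35 ± 0.20). Slc22a3, a low-affinity transporter that takes up serotonin, reached 179.8 against 106 CPM and was above on 10 of 11 plates. Maob, a monoamine oxidase, stood at 633 against 1006 CPM and was below on 9 of 11 plates.

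Markers of microglia, blood vessel cells and other amine neurons were at or near 0. In the Irx2 cells 4 of 6 microglia markers, 4 of 6 markers of blood vessel cells and 5 of 8 markers of other amine or acetylcholine neurons had no read, and no Irx2 cell exceeded 100 CPM in the sum of any of these lists. The 8 oligodendrocyte markers summed to 6.03 to 2227 CPM in the Irx2 cells (median 117) and to 0 to 78989 CPM in the other cells (median 107), and Mbp was lower past the fold in the mean of the Irx2 cells. Its ratio was below 0 on 5 of 11 plates. Of the 7 astrocyte markers Aldh1l1 had no read and Aldoc, read in all 141 cells, made nearly all of the sum (166 to 1901 CPM against 0 to 9128 CPM).

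The Irx2 cells differed from the other cells of the same plates in few genes. A gene was counted when its mean reached 10 CPM in either set, and was called past the fold when the log2 ratio of mean CPM plus 1 was at least 1 or at most -1. Of 8276 genes, 50 were higher (0.604%) and 103 lower (1.24%) in the Irx2 cells, with a median log2 ratio of 0.03 over all 8276. On every plate the ratio had the same direction for 30 of the 50 and 53 of the 103. Irx2 was used to choose the cells, so these values describe the set. The genes named next were taken by a rule, the 25 highest and 15 lowest ratios among genes with a mean of at least 20 CPM and a read in at least 50% of the cells of the higher set and with the same direction on all 11 plates. Of the 25, Pcdh9, Hcrtr1 and Nlgn1 lay just short of the fold. Plate means in the Irx2 cells and in the other cells did not overlap for 13 of the 25 and 10 of the 15. Over all 8276 genes that held for 0.375% on the higher side and 0.435% on the lower side.

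**Figure D2:**
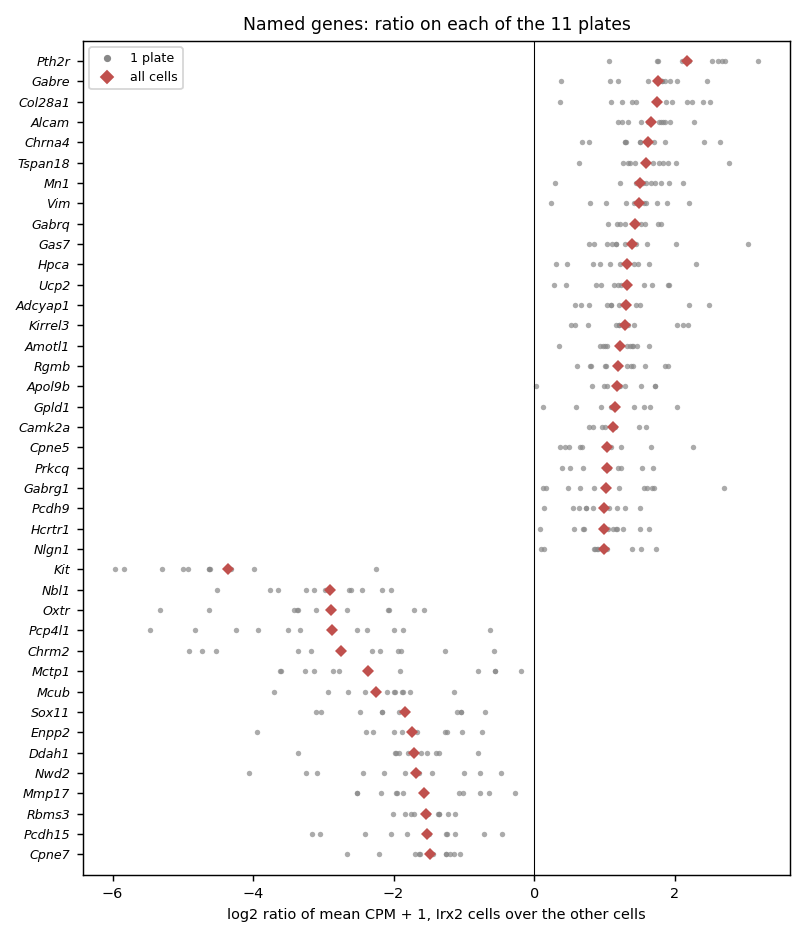
Log2 ratio of mean CPM plus 1 in Irx2 cells over the other cells of the same plates (x axis) for the 25 highest and 15 lowest genes taken by the rule. Grey points are the 11 plates and red diamonds all cells, and every point lies on the same side of 0 as its diamond, as the rule requires.

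Pth2r, Chrna4 and Hcrtr1 were receptor genes among the 25. Pth2r encodes the receptor of the peptide TIP39 and is at chr1:65282056-65389244 of GRCm38. Its plate means ran from 21.2 to 63.2 CPM (median 31.1) in the Irx2 cells and from 3.54 to 9.63 CPM (median 5.94) in the other cells, so the sets did not overlap. The log2 ratio was 2.17 over all cells and 2.25 ± 0.58 (SD, n = 11 plates) within plates. A read of Pth2r was found in 63.1% of Irx2 cells and 19.0% of the others, and after thinning in 60.4% and 18.0%. Among Zeb2 cells it was close to absent, with a mean of 0.169 CPM. Chrna4, a subunit of nicotinic acetylcholine receptors, had plate means from 59.0 to 104 CPM (median 77.7) in the Irx2 cells and from 15.9 to 36.3 CPM (median 27.2) in the other cells, again without overlap (log2 ratio within plates 1.55 ± 0.60). Hcrtr1, a receptor for orexin, was just short of the fold and did not overlap, with plate means from 264 to 421 CPM (median 349.5) in the Irx2 cells and from 122 to 254 CPM (median 161) in the other cells. Its level in Zeb2 cells was 30.4 CPM.

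The GABA receptor subunits Gabrq, Gabre and Gabrg1 were higher. Gabrq had plate means from 64.0 to 159 CPM (median 95.7) in the Irx2 cells and from 25.5 to 58.4 CPM (median 37.2) in the other cells and the narrowest spread of the 3, with a log2 ratio of 1.42 ± 0.24 within plates. Gabre, also on the X chromosome, had a mean of 28.8 against 7.74 CPM (1.63 ± 0.56), and its plate means did not overlap. For Gabrg1 the plate means overlapped, at 23.5 against 11.0 CPM over all cells, and its log2 ratio of 1.03 fell within the fold when SER48, SER55, SER56 or SER57 was left out or against the cells with neither gene (0.81). Of 15 GABA and glycine receptor genes counted these 3 were higher past the fold and none was lower, beside 0.604% and 1.24% of all genes (median log2 ratio 0.19). Gabre and Gabrq were past the fold also against Zeb2 cells (1.09 and 15.1 CPM) and against the cells with neither gene (9.96 and 45.2 CPM).

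Neuropeptide receptors differed in both directions. Of 16 counted, 5 were higher (Pth2r, Nmbr, Sstr2, Oprk1 and Rxfp1) and 5 lower (Crhr2, Npy2r, Hcrtr2, Oxtr and Calcr), with a median log2 ratio of 0.53. Sstr2 was not called against the cells with neither gene. Over all genes the shares past the fold were 0.604% and 1.24%. Oprk1, the kappa opioid receptor, had a read in 41.8% of Irx2 cells and 15.3% of the others (mean 10.6 against 3.06 CPM, above on 10 of 11 plates). Nmbr, the neuromedin B receptor, and Rxfp1, a relaxin receptor, had higher means that rested on a minority of cells. Nmbr was read in 16.3% of Irx2 cells and 4.05% of the others, and Rxfp1 in 28.4% and 30.5%. In Zeb2 cells Rxfp1 was read in 84.5%, at a mean of 25.1 CPM against 26.3 CPM in Irx2 cells. Oxtr, the oxytocin receptor, had plate means from 0 to 6.52 CPM (median 2.47) in the Irx2 cells and from 12.6 to 67.4 CPM (median 21.1) in the other cells, without overlap. It was read in 81.7% of Zeb2 cells, 50.0% of cells with neither gene and 15.6% of Irx2 cells. Crhr2, a receptor for urocortins, was at 11.5 against 29.1 CPM and below on 9 of 11 plates. Hcrtr2, the other orexin receptor, was at 9.37 against 24.2 CPM, opposite in direction to Hcrtr1, and was below on 7 of 11 plates.

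**Figure D3:**
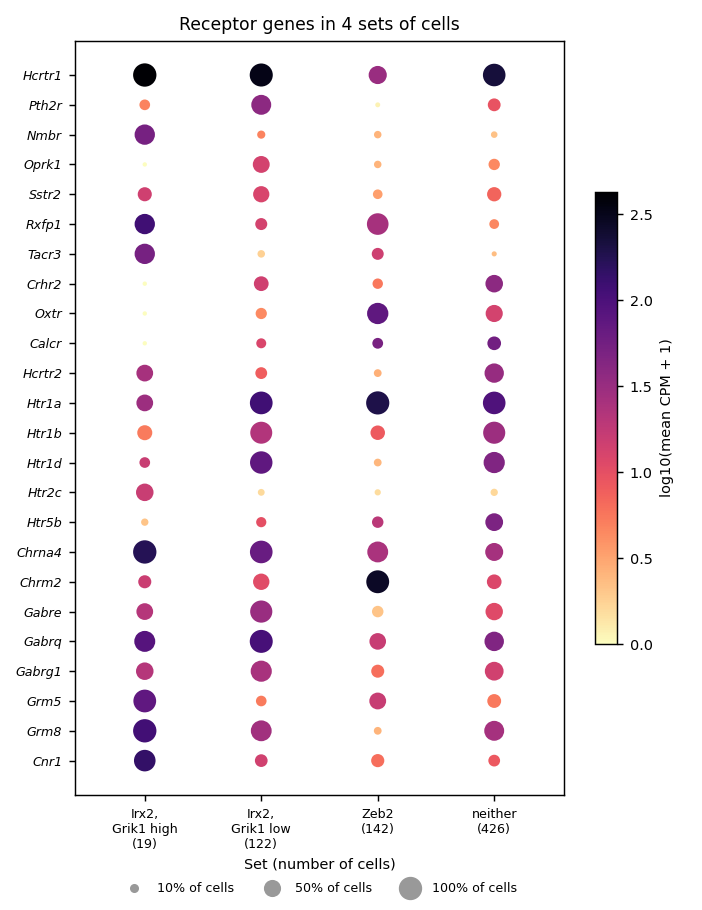
Receptor genes (rows) in 4 sets of cells (columns, with the number of cells), where colour is log10 of mean CPM plus 1 and dot area the share of cells with a read. Pth2r, Gabre and Gabrq are darkest in Irx2 cells with low Grik1 or in both columns of Irx2 cells, Oxtr and Chrm2 are darkest in Zeb2 cells, and Tacr3, Nmbr and Grm5 in the Irx2 cells with high Grik1.

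For the receptors of small transmitters the differences were fewer, and counts here stand beside 0.604% higher and 1.24% lower of all genes. Of 4 serotonin receptor genes counted none were higher and 1 lower, the latter Htr5b (8.07 against 39.8 CPM). Htr1d, an autoreceptor of serotonin terminals, was above on 11 of 11 plates but short of the fold (65.8 against 34.3 CPM), and Htr1a, the autoreceptor of cell bodies, was at 105 against 119.5 CPM. Of 8 receptors for acetylcholine, catecholamines and histamine, Chrna4 was higher and Chrm2 lower. Chrm2, a muscarinic receptor, was highest in the Zeb2 cells, with means of 274 CPM there, 10.5 CPM in Irx2 cells and 10.9 CPM in cells with neither gene. Of 14 glutamate receptor genes Grin2a was lower (6.46 against 17.0 CPM, below on 7 of 11 plates).

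Of the genes for a second transmitter, the glutamate transporter of serotonin neurons was lower in the Irx2 cells. Slc17a8, the vesicular glutamate transporter Vglut3 that many serotonin neurons use, had a mean of 40.2 against 114 CPM (log2 ratio within plates -1.63 ± 1.13, below on 10 of 11 plates) and a read in 62.4% against 75.7% of cells. Gad1, which makes GABA, had no read in the 141 cells, which allows a share of up to 2.13% when 3 cells are taken as the limit of a count of 0, and its mean in the other cells was 12.9 CPM. Gad2 differed little, at 18.9 against 22.4 CPM. Slc17a6, Slc17a7 and Slc32a1, the vesicular transporters of glutamate and GABA that other neurons use, had no read in the 141 cells. Of 10 genes of this group counted none were higher and 3 lower, the third being Slc1a2, beside 0.604% and 1.24% of all genes.

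Among neuropeptides the higher gene was Adcyap1, the precursor of PACAP. Its plate means ran from 39.8 to 92.4 CPM (median 63.6) in the Irx2 cells and from 12.2 to 39.8 CPM (median 25.9) in the other cells and lay side by side without overlap, and a read was found in 69.5% against 42.8% of cells. Of 13 neuropeptide and granule genes counted 1 was higher and 4 lower (median log2 ratio -0.41), beside 0.604% and 1.24% of all genes. The 4 were Trh, Sst, Pdyn and Gal. Thyrotropin-releasing hormone (Trh) was read in 1.42% of Irx2 cells and 6.69% of the others. Pdyn, the precursor of dynorphin, was read in 16.3% against 31.3%. Pcsk2, a protease that cuts peptide precursors, was above on 11 of 11 plates, at 133 against 67.4 CPM, and Chgb, a granule protein, was below on 11 of 11 plates, at 1963 against 2911 CPM. Neither passed the fold.

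A gene of position along the hindbrain was lower in both the Irx2 and the Zeb2 cells than in the rest. En1, which marks the midbrain and the most anterior hindbrain, was read in 17.7% of Irx2 cells, 29.6% of Zeb2 cells and 87.1% of cells with neither gene. After thinning the shares were 16.5%, 26.8% and 85.5%. Its plate means ran from 0 to 12.8 CPM (median 3.42) in the Irx2 cells and from 7.49 to 24.3 CPM (median 16.6) in the other cells, and the ratio was below 0 on 10 of 11 plates. En1 was the 1 gene counted among 21 Engrailed and Hox genes, and 18 of the 21 had no read in the Irx2 cells. Of the other Iroquois genes Irx4 and Irx6 had no read in them, and Irx1, Irx3 and Irx5 had means of 0.107, 0.0201 and 0.0483 CPM, all near the level of a few reads. Of 14 transcription factors counted none were higher and Bcl11b was lower, beside 0.604% and 1.24% of all genes. The mean of Bcl11b was 0.270 CPM against 49.1 CPM in Zeb2 cells and 1.98 CPM in cells with neither gene.

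Surface and secreted molecules also differed, and counts of lists here stand beside 0.604% higher and 1.24% lower of all genes. Alcam, an adhesion molecule of growing axons at chr16:52248996-52454074, had plate means from 90.6 to 132 CPM (median 111) in the Irx2 cells and from 19.7 to 56.8 CPM (median 33.5) in the other cells. The ranges were far apart, and the mean in Zeb2 cells was 3.94 CPM. Kirrel3, an adhesion molecule of synapses, was at 38.1 against 14.9 CPM. Rgmb, which binds BMPs and neogenin, was at 172 against 74.9 CPM, and Nlgn1, a neuroligin, at 34.1 against 16.6 CPM. The naming rule required each of these genes to be above on 11 of 11 plates. Of 21 cadherins and contactins 1 was higher (Pcdh18) and 3 lower (Cdh13, Pcdh7 and Pcdh15). Of 31 axon guidance genes 1 was higher and 3 were lower. The higher one was Nrp2, a semaphorin receptor (20.9 against 5.23 CPM), and the lower ones Plxna4, Unc5d and Cxcl12. Cxcl12 was not called against the cells with neither gene (8.63% of Irx2 cells and 9.29% of these cells with a read after thinning). Of 24 synaptic organizers C1ql1 was higher and 5 were lower, led by C1ql3 and Cbln4 (14.7 against 94.9 CPM). After thinning C1ql3 was read in 12.2% of Irx2 cells, 81.7% of Zeb2 cells and 11.0% of cells with neither gene. For Cbln4 these shares were 12.95%, 6.34% and 71.9%. Against the cells with neither gene Cbln4, Nxph1 and Lypd6 stayed lower past the fold, and C1ql3 and Nrxn3 were not called. C1ql1 was at 20.1 CPM in Irx2 cells, 23.0 in Zeb2 cells and 4.04 in the rest.

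Of 6 Wnt and BMP pathway genes counted Sostdc1 was higher and Wnt5a lower, beside 0.604% and 1.24% of all genes. Sostdc1, a secreted antagonist of both pathways, had plate means from 27.4 to 187 CPM (median 115) in the Irx2 cells and from 3.99 to 37.5 CPM (median 16.6) in the other cells, with a read in 44.0% of Irx2 cells and 18.8% of the others. Wnt4 was just short of the fold (20.5 against 9.99 CPM, log2 ratio 0.96) and was above on 11 of 11 plates. Nbl1, another secreted BMP antagonist, was among the lowest genes, with plate means from 4.86 to 26.4 CPM (median 13.7) in the Irx2 cells and from 88.0 to 169 CPM (median 119) in the other cells. Sostdc1 and Nbl1, antagonists of the same pathway, thus differed in opposite directions.

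Ion channel genes showed few differences, and all counts here stand beside 0.604% higher and 1.24% lower of all genes. Of 32 potassium channel genes 1 was higher and 2 were lower. The higher one was Kcnip4, a subunit that modulates A-type potassium channels, at 24.0 against 5.89 CPM and above on 11 of 11 plates, and the lower ones were Kcnab1 and Kcnd3. Of 25 sodium, calcium and HCN channel genes 1 was lower (Cacng3), and of 5 TRP and Piezo genes 1 was lower. That gene was Piezo2, a mechanosensitive channel, with 0.115 CPM in Irx2 cells and 51.2 CPM in Zeb2 cells. It was not called against the cells with neither gene. Of 13 calcium-binding protein genes Hpca, a neuronal calcium sensor, was higher (84.9 against 33.4 CPM) and Calb1, calbindin, lower (36.8 against 118 CPM). Hpca was above on 11 of 11 plates, as the naming rule required, and Calb1 was below on 8 of 11. Of 8 nitric oxide and cyclic GMP genes Nos1, nitric oxide synthase, was higher (25.0 against 12.0 CPM, above on 11 of 11 plates), and Gucy1a1, a subunit of the enzyme that nitric oxide activates, and Pde9a were lower. Nos1 and Pde9a were not called against the cells with neither gene. The 9 immediate-early genes counted, which respond to activity and to cell handling, had none past the fold (median log2 ratio 0.14). Of 5 intermediate filament genes Prph was lower, and Vim, counted outside this list, was higher (27.7 against 9.17 CPM).

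Kit had the lowest ratio of the named genes. This receptor for stem cell factor, at chr5:75574916-75656722, was read in 9 of 141 Irx2 cells (6.38%), against 91.5% of Zeb2 cells and 49.1% of cells with neither gene. Its plate means ran from 0 to 8.69 CPM (median 0) in the Irx2 cells and from 23.4 to 61.4 CPM (median 32.4) in the other cells. After thinning 5.04% of Irx2 cells and 58.4% of the others had a read. Of 9 growth factor receptor genes counted Kit and Ret were lower and none higher, beside 1.24% and 0.604% of all genes. The other genes of the rule that were lower were Pcp4l1, Mctp1, Mcub, Sox11, Enpp2, Ddah1, Nwd2, Mmp17, Rbms3, Pcdh15 and Cpne7. Ddah1, which breaks down an inhibitor of nitric oxide synthase, was at 65.7 against 217 CPM, and Rbms3, an RNA-binding protein, had the steadiest ratio of the 15, -1.52 ± 0.27 (SD, n = 11 plates).

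The remaining genes of the rule that were higher were Col28a1, Tspan18, Mn1, Gas7, Ucp2, Amotl1, Apol9b, Gpld1, Camk2a, Cpne5, Prkcq and Pcdh9, with log2 ratios from 1.00 for Pcdh9 to 1.74 for Col28a1. Mn1, a transcriptional coregulator, was read in 97.2% of Irx2 cells and 55.1% of the others. Camk2a, a calcium-dependent kinase of synapses, was at 88.2 against 40.2 CPM, and at 12.1 CPM in Zeb2 cells. Against the cells with neither gene alone Camk2a, Cpne5, Gpld1 and Prkcq were within the fold, with log2 ratios of 0.69 for Prkcq to 0.82 for Camk2a. Apol9b was within it at an Irx2 minimum of 20 CPM (0.65), as were Amotl1 and Prkcq. Cpne5 was within it without SER48, SER56 or SER60, and Prkcq without SER48 or SER50. The counting took no account of strand, and exons of Gas7, Hpca, Ucp2, Gpld1, Cpne5, Nlgn1, Chrm2, Enpp2 and Nwd2 overlap a gene on the other strand, so their values may hold reads of it. Apol9b has a near-identical copy, Apol9a, and reads of the pair may be split.

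The 2 kinds of other cells lay at different distances. Against the 142 Zeb2 cells, 323 of 8464 genes were higher (3.82%) and 235 lower (2.78%) in the Irx2 cells. Against the 426 cells with neither gene, 49 of 8258 were higher (0.593%) and 105 lower (1.27%). The sets differ in size and all share the Irx2 cells, so the counts are given side by side. Of 20 cadherins and contactins counted against Zeb2 cells 10 were higher and 4 lower. Examples were Cdh11 (16.6 against 0.716 CPM) and Pcdh18 (15.0 against 0.441 CPM). Of neuropeptide receptors 9 of 15 were higher than in Zeb2 cells and 2 lower. Glra2, a glycine receptor subunit, Htr1d and Gfra1, a receptor for GDNF, were present in Irx2 cells and in cells with neither gene and low in Zeb2 cells. Their means were 52.3, 74.3 and 2.85 CPM for Glra2, and 185, 156 and 12.6 CPM for Gfra1. Htr1d was read in 81.6%, 81.0% and 6.34% of the cells. Nr2f2, a nuclear receptor, went the other way, at 43.9, 27.6 and 167 CPM.

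Genes that were named with clusters of these same cells give no independent evidence. Of 4 counted genes on a list drawn up for the study's clusters MR-2 and MR-3, 4 were higher in the Irx2 cells (Oprk1, Cnr1, Nmbr and Pth2r). The paper names Oprk1, Cnr1 and Nmbr with these clusters, while its text ties Pth2r to no cluster. Of 8 on a list for its other MR or caudal DR clusters 1 was higher (Rxfp1) and 7 lower (Piezo2, Bcl11b, Gal, Crhr2, Chrm2, Cxcl12 and Calcr). The paper names Gal with the principal DR too, and describes Crhr2 with DR clusters. Of 5 on a list for its principal DR clusters none was higher and 4 lower (Ret, Trh, Gad1 and Dlk1). Dlk1 is given by the paper to an MR cluster too. These counts stand beside 0.604% and 1.24% of all genes. Met, a receptor for hepatocyte growth factor, had no read in the 141 cells, and the share of Zeb2 cells with a read was 81.7%.

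Inside the Irx2 cells a small set stood out by Grik1, which encodes a kainate receptor subunit and was used to divide the cells. Grik1 reached at least 50 CPM in 19 of 141 cells (13.5%, interval 8.31 to 20.2), on 9 of 11 plates, with 0 to 4 cells to a plate. No cell lay between 39.2 CPM, the highest value below the divide, and 75.2 CPM, the lowest above it, and 90 of the 122 cells below it had no read of Grik1. The 19 Grik1-high cells had a median of 194 CPM. Their Irx2 levels overlapped those of the 122 Grik1-low cells, from 22.3 to 189 CPM (median 72.8) against 5.36 to 144 CPM (median 28.9). The Grik1-high cells were shallower, with a median of 602374 reads against 786361, and had fewer detected genes, 8112 against 9322. The gap in detected genes was there at equal depth too, with medians of 7640 and 8557 genes at 250000 reads, when 18 and 121 cells were left.

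Cells on either side of the Grik1 divide differed in many genes. Of 8582 genes counted, 427 were higher (4.98%) and 383 lower (4.46%) in the Grik1-high cells, with a median log2 ratio of 0.02. The part that the small number of cells plays in these counts was not tested. Plates SER51, SER60 and SER63 had at least 3 cells on each side, and on these 3 plates 236 of the 427 and 309 of the 383 kept their direction. Grik1 is left out of all counts. By the same rule as before, 15 higher and 15 lower genes were named, each with the same direction on all 3 plates.

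**Figure D4:**
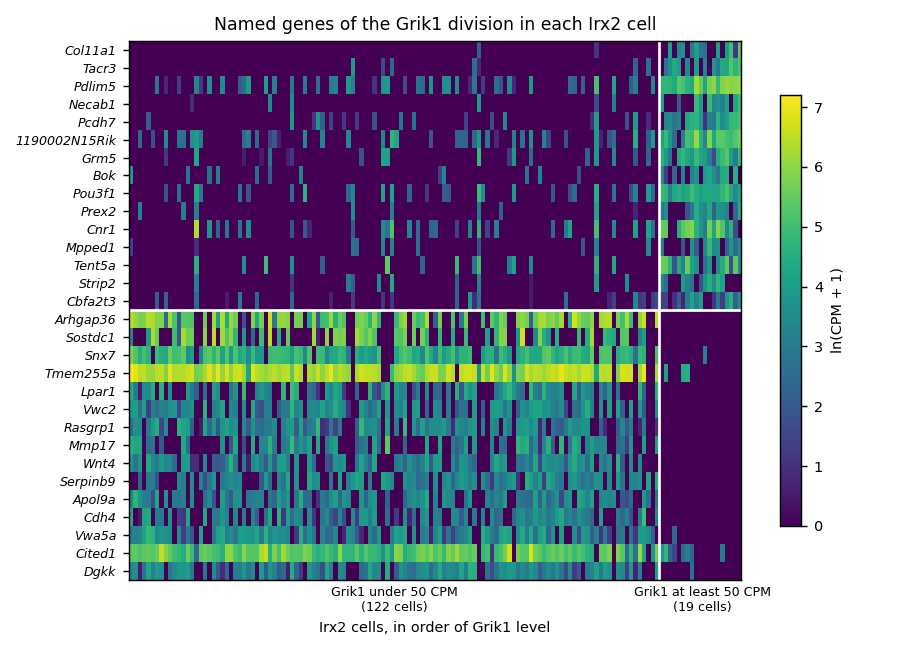
Level (colour, natural log of CPM plus 1) of the 15 genes highest and the 15 lowest in ratio (rows, above and below the horizontal line) in each of the 141 Irx2 cells, in order of their Grik1 level. The vertical line at right separates the 122 cells under 50 CPM from the 19 cells above, in which Arhgap36, Sostdc1 and Wnt4 have no read.

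Receptors and a POU factor were among the higher genes. Tacr3, the receptor of neurokinin B at chr3:134829007-134934579, ran from 0 to 194 CPM (median 36.7) in the Grik1-high cells and from 0 to 47.3 CPM (median 0) in the Grik1-low cells. It was read in 14 of 19 and 7 of 122 cells, and the ratio on the 3 plates was 4.71 ± 1.51 (SD, log2). Pou3f1, a POU domain transcription factor, was read in each of the 19 cells and in 28 of the 122, and ran from 21.2 to 175 CPM (median 78.0) in the Grik1-high cells and from 0 to 137 CPM (median 0) in the Grik1-low cells. Pdlim5, a scaffold protein of the actin skeleton, was likewise read in all 19 cells, at 241 against 9.37 CPM. Grm5, a metabotropic glutamate receptor, was read in 18 of 19 and 19 of 122 cells (73.2 against 4.25 CPM). For Cnr1, the cannabinoid receptor, the cells overlapped more, with a read in 16 and 30 cells and a highest value of 585 CPM in a Grik1-low cell. Col11a1, a fibrillar collagen, had the highest ratio (log2 5.13) and was read in 12 and 2 cells. The other named genes were Necab1, Pcdh7, 1190002N15Rik, Bok, Prex2, Mpped1, Tent5a, Strip2 and Cbfa2t3, with log2 ratios from 2.96 to 4.25. Exons of Necab1, Pcdh7, Pou3f1 and Cbfa2t3 overlap a gene on the other strand.

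Most of the lower genes were not read in the Grik1-high cells. In the 19 Grik1-high cells 10 of the 15 had no read at all, which, with the same limit of 3 cells, allows a share of up to 15.8%. The rule takes the lowest ratios and so favours genes without a read in these cells, and the count of 10 describes that choice. Arhgap36, at chrX:49463945-49500244, was read in 92 of the 122 Grik1-low cells, at a mean of 232 CPM. That mean was 1094 times a floor of 3 reads over the pooled reads of the Grik1-high cells (0.212 CPM). Sostdc1 was read in 62 of 122 cells, so that the Grik1-low cells themselves divided about evenly between cells with and without it. Its mean in them was 554 times that floor. The other 8 were Lpar1, a receptor for lysophosphatidic acid, Vwc2, a secreted BMP modulator, Rasgrp1, an activator of Ras, the metalloprotease Mmp17, Wnt4, the protease inhibitor Serpinb9, Apol9a and the cadherin Cdh4. For these 8 the multiples of the floor ran from 97.3 for Cdh4 to 129 for Lpar1. The floor treats the reads as pooled and leaves out differences between cells, so the multiples set no limit on the fold between cells. The shares cover counting error only. Multiples and shares hold for the divide at 50 CPM. With the divide at 20 CPM the log2 ratio of Arhgap36 went from -7.86 to -1.18, and those of the other 9 lay between -2.86 for Rasgrp1 and -1.02 for Serpinb9. With Irx2 cells taken regardless of Zeb2 it was -3.38 for Arhgap36 and -3.65 for Sostdc1.

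The other 5 of the 15 were present at low levels. Tmem255a, a membrane protein, was read in 3 of 19 and 113 of 122 cells and ran from 0 to 92.2 CPM (median 0) in the Grik1-high cells and from 0 to 1350.1 CPM (median 588) in the Grik1-low cells. Cited1, a transcriptional coactivator, was read in 8 of 19 and 117 of 122 cells (12.1 against 213 CPM). Snx7, Vwa5a and Dgkk had a read in 1 of the 19 cells each and in 87.7%, 82.8% and 83.6% of the Grik1-low cells. Exons of Tmem255a overlap a gene on the other strand, and reads of Apol9a may be shared with Apol9b.

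The enzymes and regulators of serotonin differed between the 2 sets too. Of 13 genes counted 1 was higher and 2 lower in the Grik1-high cells (median log2 ratio -0.37), beside 4.98% and 4.46% of all genes. Ddc, the enzyme that makes serotonin from its precursor, ran from 0 to 3991 CPM (median 975) in the Grik1-high cells and from 1020.1 to 4467 CPM (median 2936) in the Grik1-low cells, and its log2 ratio on the 3 plates was -1.61 ± 0.15. Maob, which breaks down amines, ran from 0 to 347 CPM (median 0) in the Grik1-high cells and from 0 to 2035 CPM (median 709) in the Grik1-low cells. It was read in 9 of 19 and 118 of 122 cells. Gata3, a transcription factor of serotonin neurons, was the higher gene, at 452 to 1335 CPM (median 697) in the Grik1-high cells and from 138 to 1197 CPM (median 341) in the Grik1-low cells. Tph2 was at 5134 against 8651 CPM and Slc18a2 at 2021 against 3684 CPM, both within the fold, and each of these 2 genes had a read in all 19 cells. The 7 markers of serotonin neurons were read together in 13 of the 19 (68.4%, interval 43.5 to 87.4) and 111 of the 122 cells (91.0%, interval 84.4 to 95.4).

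Receptor genes differed in both directions. All 6 serotonin receptor genes counted passed the fold, 3 higher (Htr1f, Htr2c and Htr7) and 3 lower (Htr1a, Htr1b and Htr1d), beside 4.98% and 4.46% of all genes. The autoreceptor Htr1a was read in 9 of 19 and 115 of 122 cells, and Htr1d in 3 and 112. Htr2c was read in 10 and 5, and Htr7 in 13 and 5 cells. After thinning the shares for Htr1a were 50.0% and 95.0%, and for Htr7 66.7% and 4.13%. Of 18 neuropeptide receptors 8 were higher and 4 lower. The higher ones included Nmbr (14 of 19 and 9 of 122 cells), Prlhr, the receptor of prolactin-releasing peptide (12 and 13), and Sstr1, a somatostatin receptor (13 and 7). The lower ones were Crhr2, Oprk1 and Calcr, which had no read in the 19 cells, and Pth2r, with 3 and 86 cells.

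Pth2r and Oprk1, higher in the Irx2 cells as a whole, were thus genes of the Grik1-low cells, while Nmbr and Rxfp1 had higher means in the Grik1-high ones. Rxfp1 was at 117 against 12.2 CPM and was read in 14 of 19 and 26 of 122 cells. Alcam and Gabrq had close means in both, at 112 and 112 CPM for Alcam and 84.8 and 107 CPM for Gabrq. Chrna4 was at 173 CPM in Grik1-high and 64.2 CPM in Grik1-low cells, above the 24.8 CPM of the other cells in each. Hpca, Cpne5 and Nlgn1 had means of 264, 163 and 93.3 CPM in Grik1-high cells and 56.9, 36.1 and 24.9 CPM in Grik1-low cells. In the other cells they were at 33.4, 25.4 and 16.6 CPM. Apol9b, Tspan18, Amotl1 and Prkcq were at 1.24, 9.07, 21.7 and 41.3 CPM in Grik1-high cells. That was below their 11.7, 14.3, 25.8 and 50.2 CPM in the other cells. Of 9 receptors for acetylcholine, catecholamines and histamine 2 were higher, among them Chrna4, and 3 lower (Adra2a, Adra2c and Hrh1). Adra2c, an inhibitory receptor for noradrenaline, was read in 0 of 19 and 86 of 122 cells. Of 16 glutamate receptor genes 6 were higher, among them Grm8 (113 against 26.6 CPM), and 2 lower, Gria1 and Grm7. Of 18 GABA and glycine receptor genes 4 were higher and none lower. Receptor counts in this paragraph stand beside 4.98% higher and 4.46% lower of all genes.

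In second transmitters, Gad2 was the leading gene. It was read in 11 of 19 and 21 of 122 cells (91.6 against 7.56 CPM), while Gad1 had no read in either set. Slc17a8 was read in 5 and 83 cells. Of 9 genes of the group counted 3 were higher, among them Gad2 and Gls2, and 1 was lower. Counts in this paragraph stand beside 4.98% higher and 4.46% lower of all genes. Of 11 neuropeptide and granule genes 2 were higher and 3 lower. Chgb, the granule protein, ran from 87.9 to 1476 CPM (median 242) in the Grik1-high cells and from 40.6 to 4359.8 CPM (median 2234) in the Grik1-low cells, and Pdyn had no read in the 19 cells. Of 15 transcription factors 6 were higher and 2 lower. Pbx3 and Tox, both higher, were read in 17 and 19 of the 19 cells, with means of 61.5 against 10.8 CPM and 189 against 55.2 CPM. Nr2f2 was read in 5 of 19 and 108 of 122 cells. En1 and the Hox genes had no read in the Grik1-high cells.

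Channels, adhesion and guidance genes passed the fold in both directions, and all counts here stand beside 4.98% higher and 4.46% lower of all genes. Of 33 potassium channel genes 7 were higher and 6 lower. The higher ones held 3 members of the Kcnc family, Kcnc1, Kcnc2 and Kcnc4 (Kcnc2 at 83.9 against 19.1 CPM), and the lower ones Kcnq3, a subunit of the M current (8.33 against 48.8 CPM). Of 26 sodium, calcium and HCN channel genes 6 were higher and 3 lower, and of 4 TRP and Piezo genes none passed. Of 33 guidance genes 10 were higher and 8 lower. Epha5, an ephrin receptor, was at 289 against 40.4 CPM, Nrp2 at 82.3 against 11.4 CPM, and Sema5a at 2.98 against 34.0 CPM. Of 25 cadherins and contactins 11 were higher and 5 lower. Cdh8 was read in all 19 Grik1-high cells (107 against 15.7 CPM) and Cdh4 in none of them. Of 26 synaptic organizers 6 were higher and 5 lower.

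Of 8 Wnt and BMP genes counted 1 was higher and 3 lower (Wnt4, Dkk3 and Sostdc1), where 4.98% and 4.46% of all genes were. Of 8 growth factor receptor genes Erbb4 was higher. Of 15 calcium-binding protein genes 3 were higher (Calb2, Necab1 and Hpca) and 5 lower, and Ncald ran from 0 to 234 CPM (median 74.4) in the Grik1-high cells and from 0 to 1206 CPM (median 666) in the Grik1-low cells. Of 7 nitric oxide and cyclic GMP genes 2 were lower (Gucy1a1 and Pde2a), and of 4 intermediate filament genes 1 was lower, Nefh. Immediate-early genes had 1 higher and 2 lower of 9, Nr4a1 against Ier2 and Btg2. Of the genes listed for the study's clusters MR-2 and MR-3, chosen on these cells, 5 of 7 counted were higher and 2 lower (Oprk1 and Pth2r). None of the 6 blood vessel and 8 other transmitter markers and 1 of the 6 microglia markers had a read in the Grik1-high cells. Their oligodendrocyte markers summed to 8.04 to 384 CPM against 6.03 to 2227 CPM, and the astrocyte gene Gja1 was higher through 1 cell (21.6 against 0.189 CPM). At equal depth of 250000 reads, with the sets kept, 466 genes were higher and 426 lower past the fold, and 424 and 380 without the cells over 1000 CPM in the oligodendrocyte markers. The median log2 ratios of these lists by function lay between -0.93 and 0.85, beside 0.02 for all 8582 genes.

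Read cell by cell, the 2 groups of genes were nearly exclusive. Of the 15 higher genes the 19 Grik1-high cells had 8 to 15 (median 12), and of the 15 lower genes 0 to 2, with none in 10 cells. The 122 Grik1-low cells had 0 to 12 of the former (median 2) and 1 to 15 of the latter (median 12). The genes were chosen on this division, so the separation is a description. The cells that depart from it were part of the means that chose the genes, so their number is a description as well. Among the Grik1-low cells 9 had at least 8 of the 15 higher genes, and 6 of these had no Grik1 read. Of the 11 Grik1-low cells with 20 to 39.2 CPM of Grik1, 2 had at least 8 of the higher genes and 7 had at least 8 of the lower ones. These 11 cells were part of the set on which the genes were chosen.

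**Figure D5:**
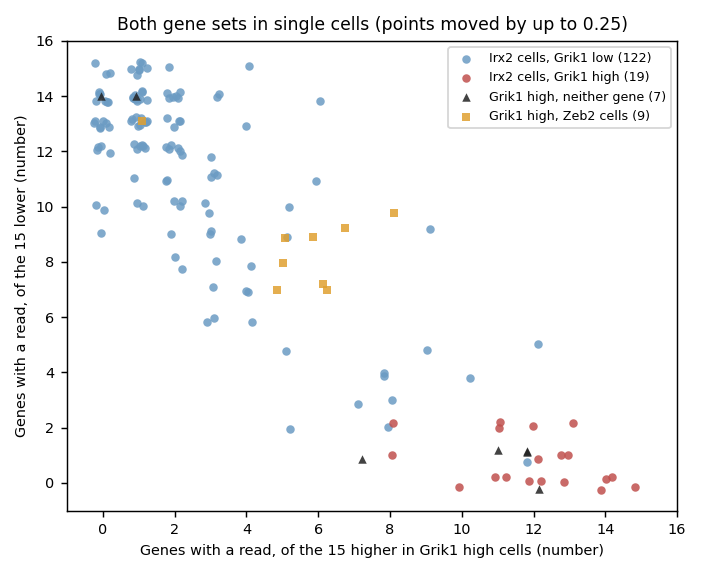
Each point is 1 cell, by the number of genes with a read among the 15 higher (x axis) and the 15 lower (y axis) in Grik1-high Irx2 cells, moved by up to 0.25 so that cells do not cover each other. Grik1-high Irx2 cells (red) lie at lower right, most Grik1-low cells (blue) at upper left, and of the Grik1-high cells without Irx2 and Zeb2 (black) 4 lie with the red points, while most of those of the Zeb2 cells (orange) lie between.

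The genes could also be read in Grik1-high cells that the gates had left out. Grik1 reached 50 CPM in 7 of 426 cells with neither gene (1.64%, interval 0.663 to 3.36) and 9 of 142 Zeb2 cells (6.34%, interval 2.94 to 11.7). In the cells with neither gene the 7 compared with the other 419 as in the Irx2 cells. Of the 15 higher genes 14 had a ratio above 0 and 11 were past the fold (median log2 ratio 3.14, against 0.11 over 8801 genes), with Strip2 past it in the opposite direction, and of the 15 lower genes 13 had a ratio below 0 and 8 were past it (median -1.16). Tacr3, for example, was at 41.6 against 0.635 CPM and Pdlim5 at 153 against 10.3 CPM. By cell, 4 of the 7 had 11 or 12 of the higher genes and at most 1 of the lower, 1 had 7 and 1, and the other 2 had 0 or 1 of the higher and 14 of the lower genes. None of the 7 had a read of Irx2.

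In Zeb2 cells it was otherwise. Between the 9 Grik1-high and the other 133 Zeb2 cells, 7 of the 15 higher genes had a ratio above 0 and none was past the fold in that direction (median -0.06, against 0.03 over 8490 genes), while Col11a1 and Cnr1 were past it in the opposite one. Of the 15 lower genes 8 had a ratio below 0, with Vwc2 past the fold, and Cdh4, Sostdc1 and Wnt4 were past it in the opposite direction. The highest Grik1 level in these 9 cells was 92.6 CPM, below the median of 194 CPM of the Grik1-high Irx2 cells. Among the 9, the cell D11_SER51 had Irx2 at 15.3 CPM and was left out for its Zeb2. Pou3f1 was at 95.8 and 55.5 CPM on the 2 sides, and Tacr3 at 14.6 and 13.5 CPM. With 7 and 9 cells in 1 sample, whether these cells differ from each other was not tested.

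The dissection of the principal DR, which took no part in the choice, held 8 cells with Irx2 of at least 5 CPM among 290 (2.76%, interval 1.20 to 5.36), on 3 of its 5 plates and without a read of Zeb2. Their Irx2 levels were 6.94 to 44.7 CPM (median 16.5). Of the 25 genes higher in the Irx2 cells 20 had a ratio above 0 in these 8 cells against the other 282 and 13 were past the fold (median log2 ratio 1.25, against 0.04 over 8607 genes). Of the 15 lower genes 14 had a ratio below 0 and 10 were past the fold (median -1.67). Pth2r was read in 5 of the 8 cells and 7.45% of the rest (40.9 against 2.65 CPM). Gabrq was read in 7 (122 against 40.3 CPM) and Alcam in all 8 (106 against 43.8 CPM). Kit had no read in the 8 cells and was read in 70.6% of the rest. Of the 25, Gas7, Hpca, Ucp2, Prkcq and Nlgn1 had the opposite direction, past the fold for Nlgn1 alone, at 11.4 against 28.6 CPM. So had Oxtr among the lower genes (10.6 against 8.52 CPM).

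Promoters of the named genes were read for motifs of the regulators that mark the cells. Each window runs from 250 bases before to 50 bases after a start site of RefSeq (build GRCm38.p6), and 56 of 74 genes looked up have one. The motif of Iroquois proteins, ACANNTGT, which reads the same on both strands, was in 7.38% of all 32851 promoters and, among 30 promoters of the 25 genes higher in Irx2 cells, in 1, that of Hpca. The octamer of POU factors, ATGCAAAT, searched on both strands, was in 1.74% of all promoters and in 1 of 16 of the genes higher in Grik1-high cells, that of Tent5a, a poly(A) polymerase gene. These 2 promoters are shown since their genes were higher together with Irx2 and with Pou3f1, with the matching bases in capitals. They are at chr4:129120123-129120422 and chr9:85327101-85327400, both on the minus strand. The Hpca window lies wholly within the gene, which runs from 129111570 to 129122036, so this start site is an internal one. A match says only that the letters are there.
Hpca: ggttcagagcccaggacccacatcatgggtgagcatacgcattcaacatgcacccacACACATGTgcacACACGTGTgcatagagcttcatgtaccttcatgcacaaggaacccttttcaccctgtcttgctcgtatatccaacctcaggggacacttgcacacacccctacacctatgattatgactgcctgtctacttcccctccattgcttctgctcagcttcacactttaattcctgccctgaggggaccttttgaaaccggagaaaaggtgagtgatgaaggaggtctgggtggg
Tent5a: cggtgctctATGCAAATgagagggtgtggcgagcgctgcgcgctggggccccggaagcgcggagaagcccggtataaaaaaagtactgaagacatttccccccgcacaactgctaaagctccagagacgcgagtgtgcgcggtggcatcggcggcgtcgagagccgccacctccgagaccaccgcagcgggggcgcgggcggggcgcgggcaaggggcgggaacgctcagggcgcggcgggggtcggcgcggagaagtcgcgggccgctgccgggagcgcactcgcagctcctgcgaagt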

How the data were processed

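Single tdTomato-positive cells were sorted and made into Smart-seq2 libraries, sequenced as 75-base read pairs. Per the labels the reads were processed with bcl2fastq 2.19.0.316, STAR 2.6.1a (mm10, GRCm38) and HTSeq 0.11.2. The authors counted reads on genes without regard to strand and deposited CPM, without genes of the Y chromosome. Every value above 0 in the table (53263 genes, 999 of the 1536 labelled cells) was a whole multiple, within 0.001, of the worth of 1 read (100.0% of values), so reads per cell were recovered. A count model was not run, since the labels name no animal and each set of cells belongs to 1 sample. The other 537 labelled cells were not analysed here.

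Levels are mean CPM over cells, and a ratio is the log2 of mean CPM plus 1 in one set over the other. It was also computed plate by plate, where both sets had 3 or more cells. A gene was counted with a mean of at least 10 CPM in either set. The cells, the gene lists and the naming rule were chosen with earlier results of these data known. The rule named members of the lists and, with the same direction on every plate, a mean of at least 20 CPM and a read in at least 50% of cells of the higher set, the 25 highest and 15 lowest ratios for Irx2 and 15 and 15 for Grik1. Cells came sorted singly, and no doublet caller was run. Intervals are exact 95% binomial, and the limit for a count of 0 is 3 cells of the set. The ratio was tested on simulated reads. Alternatives were other thresholds, pseudocounts, weights, depths and level minimums, and each plate left out in turn. Coordinates are from GENCODE M21. Python 3.11.15, NumPy 2.4.6, pandas 2.3.3, SciPy 1.17.1 and matplotlib 3.10.9 were used. Results that need withheld genes are not reported here.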

Additional observations from a re-analysis of the deposited data

Results flagged for a closer look

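The principal DR dissection, from which no Irx2 cell was chosen, held 8 cells with Irx2 of at least 5 CPM among 290, a signal in cells outside the 11 plates compared. The labels give no sample of this dissection in which Irx2 should be absent, and the boundary of the dissection was not measured here.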

How the results depend on the processing

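The 6 results recomputed were the number of Irx2 cells (141), the share with high Grik1 (13.5%) and the 4 counts of genes past the fold (50 higher and 103 lower in Irx2 cells, 427 higher and 383 lower in Grik1-high cells). With each plate left out in turn they ran from 124 to 134 cells, from 12.0% to 14.4%, and from 45 to 55, 102 to 110, 409 to 471 and 371 to 464 genes. With a Grik1 divide of 20 CPM the share was 21.3%, with 244 genes higher and 164 lower. A pseudocount of 10 CPM gave 20 and 63 genes for Irx2 and 185 and 177 for Grik1. Counting genes from a mean of 2 CPM gave 102 and 242, and 995 and 906, and from 50 CPM 15 and 34, and 114 and 84. The last 2 changes follow from the number of genes counted. Under the other alternatives, including every cell thinned to 250000 reads and 2 alternatives added after seeing the data, thinning with the sets kept and leaving out 7 cells over 1000 CPM in oligodendrocyte markers, the counts stayed within 1.5 times. Of the log2 ratios of named genes none changed sign. Of the 37 named Irx2 genes past the fold, 6 were within it with the Zeb2 cells left out of the other cells, among them Chrm2 (-0.05), 9 with a pseudocount of 10 CPM and 3 at an Irx2 minimum of 20 CPM. The other alternatives ended up to 1 such call each, plates left out up to 3 (SER48), and none of the 30 for Grik1 ended. For Irx2 13 of 1040 values moved by more than the spread between plates, and for Grik1 79 of 780. No paired analysis was possible because the labels give no replicate numbers and no result comes from a test.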
